A study of Homo sapiens with 6 samples.

Results

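The 10 genes described here are those of the NRF2 antioxidant and cystine transport system: NFE2L2, KEAP1, SLC7A11, SLC3A2, HMOX1, NQO1, GCLC, GCLM, TXNRD1 and SRXN1. They were chosen by symbol, with earlier results of these data known. All 10 matched 1 row each among the 58051 Ensembl gene IDs of the count table. The cells were A375, an established human melanoma line with a mutant BRAF gene, kept without serum for 2 h before 10 ng/mL of recombinant human TGFB1 was added (3 libraries), or its carrier, 4 mM HCl with 1 mg/mL BSA (Vehicle, 3 libraries), for a further 2 h. All 6 libraries therefore share the line, the starvation and the collection time, and the submitters describe the triplicates as technical, so each p-value measures the spread between these libraries and not between independent experiments.

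NRF2, the protein of NFE2L2, is a transcription factor that is made continuously and destroyed through the adaptor KEAP1. Oxidants and electrophiles modify KEAP1, whereupon NRF2 accumulates, pairs with small MAF proteins and binds antioxidant response elements in the promoters and enhancers of its target genes. Those targets import cystine, build glutathione, recycle thioredoxin and break down heme and quinones, and in melanoma and other tumour cells they are studied for their part in resistance to oxidative stress and to ferroptosis. BACH1, a repressor that heme removes from DNA, competes for the same elements and is a well-known restraint on HMOX1.

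The element that NRF2 reads has the core TGACNNNGC, and it was searched on both strands in RefSeq promoter windows (GRCh38.p14) that run from 250 bases before to 50 bases after each annotated start. Of the 10 genes, 8 matched an entry, with 13 windows between them; HMOX1 and SLC7A11 did not. The core lay in windows of 4 of the 8 genes, KEAP1, SLC3A2, GCLM and TXNRD1 (5 of 13 windows), against 13.3% of all 35116 windows. The 7 matches are shown because they are the letters that NRF2 is known to read; each is printed on the strand that reads the core, with the core in capitals and 10 bases on either side.
GCLM, chr1:93909446-93909474, plus strand: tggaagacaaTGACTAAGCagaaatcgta
KEAP1, chr19:10502784-10502812, plus strand: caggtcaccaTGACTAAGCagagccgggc
KEAP1, chr19:10502807-10502835, minus strand: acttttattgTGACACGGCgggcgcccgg
SLC3A2, chr11:62881652-62881680, plus strand: cgagggtgggTGACTCAGCgtcctccttc
TXNRD1, chr12:104286920-104286948, minus strand: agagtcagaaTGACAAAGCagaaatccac
TXNRD1, chr12:104215670-104215698, plus strand: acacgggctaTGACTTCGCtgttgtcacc
TXNRD1, chr12:104215761-104215789, minus strand: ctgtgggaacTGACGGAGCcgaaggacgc

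GCLM and KEAP1 held the identical core, and its base farthest from the start lay 34 and 31 bases before an annotated start. By GENCODE 29, 3 of the 7 printed stretches (both of KEAP1 and that of TXNRD1 with the core TGACAAAGC) lay wholly within annotated exons of their gene, 3 lay partly and 1 not at all. In 3 of the 7 matches, 1 each in GCLM, KEAP1 and TXNRD1, the core was followed by A. That longer form lay in 3 of the 13 windows, against 3.18% of all windows, where 13.3% held the core at all. The GCLM match and the TXNRD1 match whose farthest base lay 102 bases before a start also shared the next 7 bases. The SLC3A2 match overlaps an AP-1 motif (TGANTCA), the only one in the 13 windows, where 7.71% of all windows held one. The same SLC3A2 window held the amino acid response element core TGATGNAA (3.62% of all windows), and the E-box CACGTG (7.26%) was in none of the 13. These matches describe letters in a window and say nothing of occupancy in these cells.

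The libraries held 24713894 to 34895075 counts, and levels are given as CPM, counts scaled to the library total after it was adjusted by the TMM factor. Vehicle replicate 1 stood apart on the first principal component of all tested genes (28.9% of the variance). It was at -37.1, against -13.4 and -8.25 for the other Vehicle libraries and 17.7 to 20.7 for the TGFB1 libraries. Without it HMOX1 still rose (log2 fold change 0.73) and SLC7A11 still fell (-0.22, adjusted p = 0.0182, edgeR). The added ligand was visible in the inhibitory gene SMAD7, which held 9.29 ± 1.74 CPM (Vehicle) and 61.1 ± 3.49 CPM (TGFB1; SD, n = 3 each), and in the corepressor gene SKIL, with 73.6 ± 0.556 and 204.4 ± 3.73 CPM. Over all genes 553 passed the test, a count that was 923 without Vehicle replicate 3 and 365 without TGFB1 replicate 1. Of 11 markers of melanoma and the melanocyte lineage 7 averaged at least 1 CPM, VIM, AXL and MITF among them, while SOX10 was at 0 counts in every library and TYR was highest at 0.154 CPM. Their summed level, most of it VIM, was 1447 to 1555 CPM in Vehicle and 1630 to 1667 CPM with TGFB1. Of the 9 that were tested, 1 rose and 1 fell, against 3.31% of all tested genes that passed in either direction. VIM, the vimentin gene, went from 1117 ± 43.2 to 1246 ± 23.9 CPM (SD, n = 3 each), with a log2 fold change of 0.16 and SE 0.04 (adjusted p = 0.0406, edgeR). That call was lost with upper-quartile scaling (adjusted p = 0.0795) and with any library but Vehicle replicate 3 left out (0.111 to 0.239). MITF, the melanocyte lineage transcription factor gene, fell from 62.7 ± 3.02 to 53.5 ± 2.01 CPM (SD, n = 3 each), with a log2 fold change of -0.23 and SE 0.06 (adjusted p = 0.0355, edgeR), close in size to that of SLC7A11. It was lost with no low-count filter (adjusted p = 0.0854) and without Vehicle replicate 1 or 2 or TGFB1 replicate 1 or 3 (0.107, 0.229, 0.208 and 0.205). The adjusted p of VIM ran from 0.00866 to 0.239 over the 14 alternatives and that of MITF from 0.00787 to 0.229. The other 7 did not pass and went both ways. DCT, PMEL and S100B had log2 fold changes of -0.50, -0.78 and -0.11. MLANA, S100A1, AXL and NGFR had 0.94, 0.20, 0.16 and 0.05. Of the markers of other cell types, the summed level of the leukocyte list (6 genes) was 6.35 to 7.59 CPM in Vehicle and 5.74 to 6.61 CPM with TGFB1, most of it LYZ, and 1 of its 6 genes averaged at least 1 CPM. The endothelial list (4 genes) summed to 13.2 to 18.0 and 14.9 to 16.1 CPM, and the fibroblast list (6 genes) to 16.2 to 19.4 and 13.5 to 16.4 CPM. The epithelial list (6 genes) summed to 51.8 to 69.8 and 66.1 to 70.0 CPM, from KRT10 and KRT14, while KRT1, KRT5, EPCAM and CDH1 were all under 1 CPM. The part of these marker levels in the results was not tested.

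All 10 genes passed the low-count filter and were tested. HMOX1, which encodes the inducible heme oxygenase, rose 1.61-fold with TGFB1, and SLC7A11, which encodes the cystine-importing subunit xCT, fell to 0.848 of its Vehicle level. The other 8 did not pass the test. This is 2 of 10 genes past an adjusted p of 0.05 (edgeR's quasi-likelihood test, Benjamini-Hochberg adjusted over 16690 genes), 1 higher and 1 lower, against 3.31% of all tested genes, 2.43% higher and 0.887% lower. The median log2 fold change was -0.03 over the 10 genes and -0.01 over all tested genes. With Vehicle replicate 2 or TGFB1 replicate 3 left out, SLC7A11 no longer passed and the count was 1. Counts are relative to the adjusted library total. A change in the number of cells, or one shared by all their RNA, would therefore not show in these values.

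**Figure D1:**
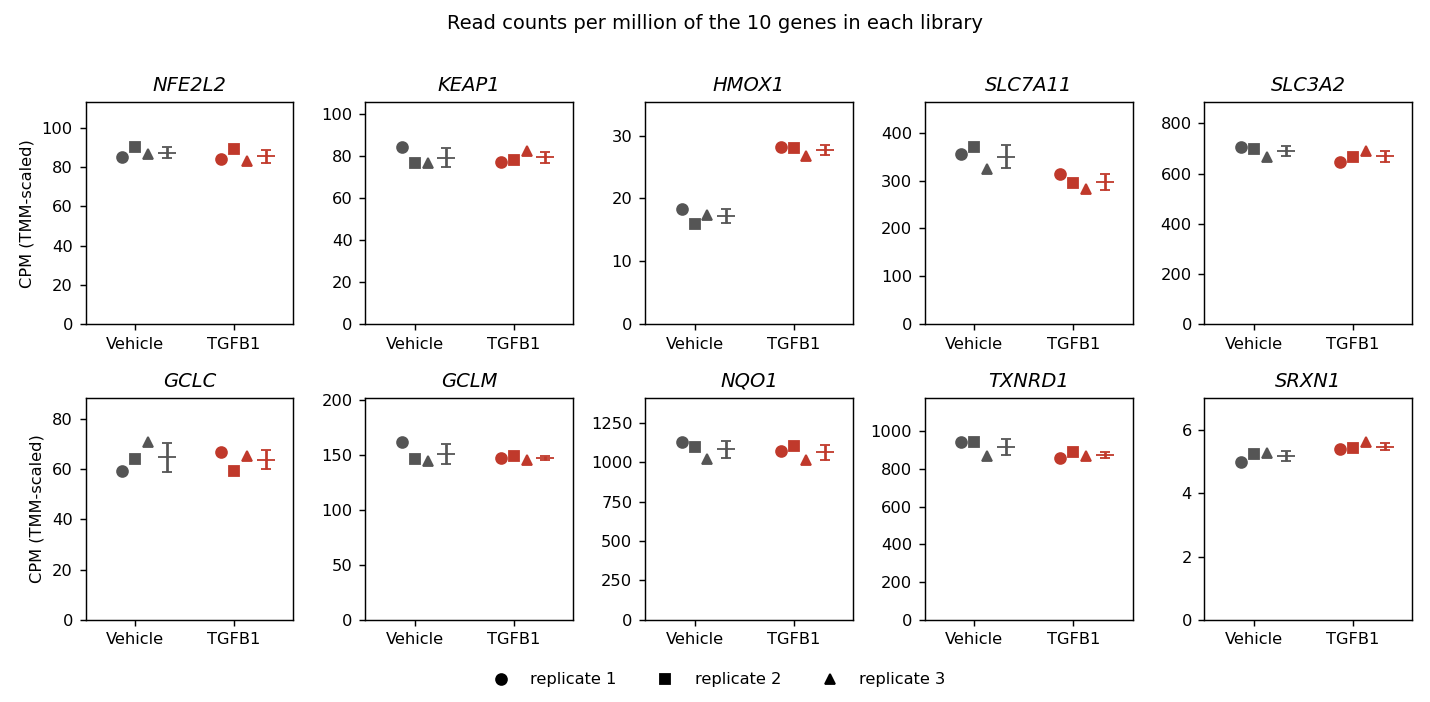
TMM-scaled CPM (y axis, from 0) of the 10 genes in each library; symbols mark replicates, grey is Vehicle, red is TGFB1, and the bar beside each group is the mean with 1 SD (n = 3). HMOX1 lies between 16.0 and 18.3 CPM in Vehicle and between 26.8 and 28.3 CPM with TGFB1, SLC7A11 between 323.4 and 371.3 and between 282.4 and 314.6 CPM, and the groups of the other genes overlap except for SRXN1.

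The transcription factor and its sensor stand at the head of the pathway, and neither gene changed detectably. NFE2L2 read 85.1, 90.5 and 86.5 CPM in Vehicle replicates 1, 2 and 3 and 84.3, 89.0 and 83.1 CPM in TGFB1 replicates 1, 2 and 3. The 2 sets of libraries overlapped, with a difference of -2.16% (95% interval -9.66% to 5.95%, adjusted p = 0.898, edgeR). KEAP1, whose protein delivers NRF2 to the CUL3 ubiquitin ligase, read 84.4, 76.5 and 76.6 CPM in Vehicle and 77.2, 77.9 and 82.4 CPM with TGFB1. Vehicle held both the highest and the lowest of the 6 libraries, and the difference was 0.13% (95% interval -7.88% to 8.83%, adjusted p = 0.996, edgeR). The amount of NRF2 protein is known to be set largely by its degradation, which read counts do not measure.

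HMOX1 lies on chromosome 22 at 35380361 to 35394214 (GENCODE 29, GRCh38), and its exons share no base with another annotated gene. Its product opens the heme ring to give biliverdin, carbon monoxide and iron. The 3 Vehicle libraries held 447, 487 and 605 reads and the 3 TGFB1 libraries 928, 971 and 873. In CPM that was 18.3, 16.0 and 17.4 in Vehicle and 28.3, 28.0 and 26.8 with TGFB1. Every TGFB1 library was above every Vehicle library, and the gap between the groups was wider than the range within either. The mean was 17.2 ± 1.15 CPM in Vehicle and 27.7 ± 0.780 CPM with the ligand (SD, n = 3 each). The log2 fold change was 0.69 with SE 0.09 (adjusted p = 1.41e-06, edgeR). The 95% interval of the fold was 1.42 to 1.83. HMOX1 passed under all 14 alternatives run, with log2 fold changes of 0.64 to 0.73 and adjusted p from 1.44e-11 to 0.000148.

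HMOX2, the constitutive heme oxygenase gene, had a log2 fold change of 0.01 with SE 0.06 (adjusted p = 0.970, edgeR; named after its value was seen). Of 10 tested genes of heme breakdown, ferritin and iron handling, 0 passed by edgeR, DESeq2 or limma-voom. Their median log2 fold change was 0.01. By edgeR 3 had an unadjusted p under 0.05, against 12.3% of all tested genes. Only 1 did by DESeq2 and 1 by limma-voom, for which the share over all tested genes was not taken. The list genes with the most reads were FTL, the ferritin light chain gene, at 765.1 ± 29.7 CPM (Vehicle) and 743.5 ± 22.9 CPM (TGFB1), and TFRC, the transferrin receptor gene, at 531.5 ± 32.2 and 481.5 ± 25.1 CPM (SD, n = 3 each). Over the 6 libraries, the genes whose log2 CPM followed HMOX1 most closely among 10561 genes with a mean of at least 5 CPM were the urocortin-family peptide gene UCN2, the cytokine gene LIF and the kinase gene WEE1, a brake on entry into mitosis, with Pearson r of 0.999, 0.996 and 0.995. These correlations are descriptions over 6 libraries that fall into 2 groups, and all 3 genes also rose, with log2 fold changes of 1.27, 1.95 and 0.95.

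Cystine enters the cell through system xc-, a heterodimer in which SLC7A11 exchanges cystine for glutamate and SLC3A2 (CD98hc) carries it to the membrane. SLC7A11 lies on chromosome 4 at 138164097 to 138242349, on the minus strand. It held 356.5, 371.3 and 323.4 CPM in Vehicle replicates 1, 2 and 3. With TGFB1 it held 314.6, 294.5 and 282.4 CPM. The groups did not overlap, but the lowest Vehicle library, replicate 3, and the highest TGFB1 library, replicate 1, were close. The mean went from 350.4 ± 24.6 to 297.2 ± 16.3 CPM (SD, n = 3 each). The log2 fold change was -0.24 with SE 0.05 (adjusted p = 0.00497, edgeR), or -15.2% with a 95% interval of -21.3% to -8.56%. The call was lost without Vehicle replicate 2 (log2 fold change -0.19, adjusted p = 0.11) and without TGFB1 replicate 3 (-0.20, adjusted p = 0.0871), and over all 14 alternatives the adjusted p ran from 5.9e-05 to 0.11.

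SLC3A2, shared by system xc- with several neutral amino acid carriers, did not pass. It held 708.2, 697.1 and 666.7 CPM in Vehicle and 646.8, 667.2 and 691.8 CPM with TGFB1, so the groups overlapped. The difference was -3.19% (95% interval -9.25% to 3.28%, adjusted p = 0.772, edgeR). The read ratio of SLC7A11 to SLC3A2 was 0.503, 0.533 and 0.485 in Vehicle and 0.486, 0.441 and 0.408 with TGFB1. The lowest Vehicle ratio lay just under the highest TGFB1 ratio, so the groups overlapped by that measure, and no test was run on it.

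**Figure D2:**
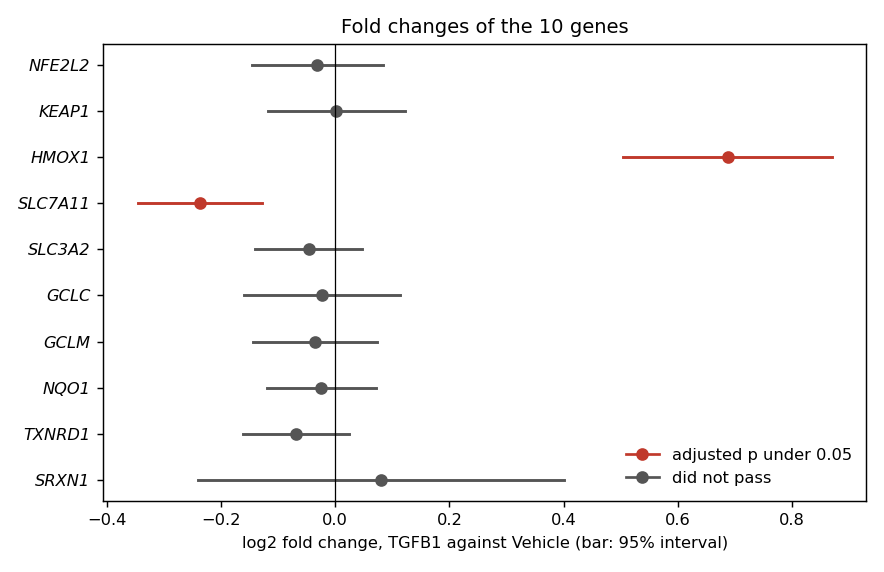
log2 fold change of each of the 10 genes, TGFB1 against Vehicle (x axis), with its 95% interval from the edgeR fit; red marks an adjusted p under 0.05. HMOX1 at 0.69 and SLC7A11 at -0.24 are the red points, and the other 8 intervals include 0.

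An antisense gene, SLC7A11-AS1 (chromosome 4, 138057464 to 138178177, plus strand), runs across the end of SLC7A11, with 865 exonic bases in common, or 8.97% of the exonic bases of SLC7A11. It had 88, 94 and 64 reads in Vehicle and 36, 24 and 46 with TGFB1. Every TGFB1 library was below every Vehicle library. The log2 fold change was -1.40 with SE 0.31 (adjusted p = 0.00404, edgeR), lost without Vehicle replicate 2 (adjusted p = 0.0504; 0.00011 to 0.0504 over the alternatives). The strand setting of the counting is not given in the sources used here, so reads of the antisense gene and of SLC7A11 pre-mRNA cannot be told apart, and the value is uncertain.

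Among the same 10561 genes, Pearson r with SLC7A11 was again only a description over 6 libraries. The genes most like it in pattern were DCBLD2, the Wnt receptor gene FZD7 and the acetyltransferase subunit gene NAA38, with r of 0.993, 0.990 and 0.987. Of these FZD7 passed the test (log2 fold change -0.26, adjusted p = 0.0221, edgeR), while DCBLD2 (-0.09) and NAA38 (-0.09) did not, with adjusted p of 0.422 and 0.655. Vehicle replicate 3 was the lowest Vehicle library for 5 of the 10 genes, SLC7A11, SLC3A2, NQO1, GCLM and TXNRD1. Vehicle replicate 1 was lowest for 3 and Vehicle replicate 2 for 2, and the share over all tested genes was not taken. Without Vehicle replicate 3 the log2 fold change of SLC7A11 was -0.29. Those of SLC3A2, NQO1, GCLM and TXNRD1 were -0.07, -0.06, -0.07 and -0.11, none past the threshold.

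Imported cystine is reduced to cysteine, and glutamate-cysteine ligase joins it to glutamate in the limiting step of glutathione synthesis. The catalytic subunit gene GCLC read 59.2, 64.1 and 70.8 CPM in Vehicle and 66.7, 59.5 and 65.2 CPM with TGFB1. The Vehicle libraries spanned the TGFB1 ones, and the difference was -1.56% (95% interval -10.5% to 8.21%, adjusted p = 0.949, edgeR). The modifier subunit gene GCLM read 162.0, 146.8 and 144.5 CPM in Vehicle and 147.1, 149.4 and 145.7 CPM with TGFB1. Apart from Vehicle replicate 1 these lay within a narrow band, and the difference was -2.40% (95% interval -9.47% to 5.22%, adjusted p = 0.876, edgeR). The read ratio of GCLM to GCLC ran from 2.04 to 2.73 in Vehicle and from 2.20 to 2.51 with TGFB1, the second range lying inside the first.

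NQO1, the quinone reductase gene often used as a readout of NRF2 activity, had the highest level per length of the 10. It held 1128, 1095 and 1022 CPM in Vehicle and 1074, 1102 and 1013 CPM with TGFB1. Replicate 3 was lowest in both groups, and the difference was -1.71% (95% interval -8.01% to 5.02%, adjusted p = 0.905, edgeR). TXNRD1, the cytosolic thioredoxin reductase gene, held 943.5, 942.6 and 868.8 CPM in Vehicle and 861.6, 893.6 and 871.0 CPM with TGFB1. Here 1 Vehicle library fell among the TGFB1 libraries, and the difference was -4.67% (95% interval -10.6% to 1.65%, adjusted p = 0.603, edgeR).

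SRXN1, whose product sulfiredoxin restores overoxidised peroxiredoxins, had the fewest reads, 122, 160 and 184 in Vehicle and 177, 188 and 183 with TGFB1. In CPM that was 4.99, 5.26 and 5.29 against 5.39, 5.43 and 5.62, so the TGFB1 libraries all lay above the Vehicle ones by a small margin. With HMOX1 and SLC7A11 this made 3 of 10 genes with no overlap between the groups, against 16.4% of all tested genes. SRXN1 did not pass (5.71%, 95% interval -15.4% to 32.1%, adjusted p = 0.910, edgeR), and its interval was the widest of the 10. In GENCODE 29, 2292 of its 2698 exonic bases, 85.0%, also belong to AL121758.1 on the same strand. Reads in shared exons can be left uncounted, so its level may rest on the other 406 bases.

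Of the 8 genes that did not pass, 7 had 95% intervals between -10.6% and 8.83%, so a change of the size seen for HMOX1 lay outside every one of these intervals. None of these 8 genes passed under any of the 14 alternatives.

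Levels of different genes were compared only as CPM per kilobase of exonic length in GENCODE 29, averaged over the 6 libraries. NQO1 stood highest at 329.6 CPM per kb, above 99.3% of 16624 tested genes with a length. TXNRD1 (133.7 CPM per kb) and SLC3A2 (131.3 CPM per kb) followed, and their libraries overlapped. SLC7A11 (33.6 CPM per kb) and GCLM (27.5 CPM per kb) came next and also overlapped, ahead of KEAP1 (21.0 CPM per kb) and NFE2L2 (14.5 CPM per kb), which did not. HMOX1 averaged 7.16 ± 0.479 CPM per kb in Vehicle and 11.5 ± 0.324 CPM per kb with TGFB1 (SD, n = 3 each), while GCLC stood at 7.49 ± 0.674 and 7.38 ± 0.440 CPM per kb. HMOX1 was thus beside GCLC in Vehicle and above it with TGFB1, and it remained below NFE2L2 in both groups. SRXN1 was last at 1.98 CPM per kb, or 13.1 CPM per kb of its unshared exonic length. Of the 10 genes, HMOX1, the one that rose, was among the 3 lowest by this measure.

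**Figure D3:**
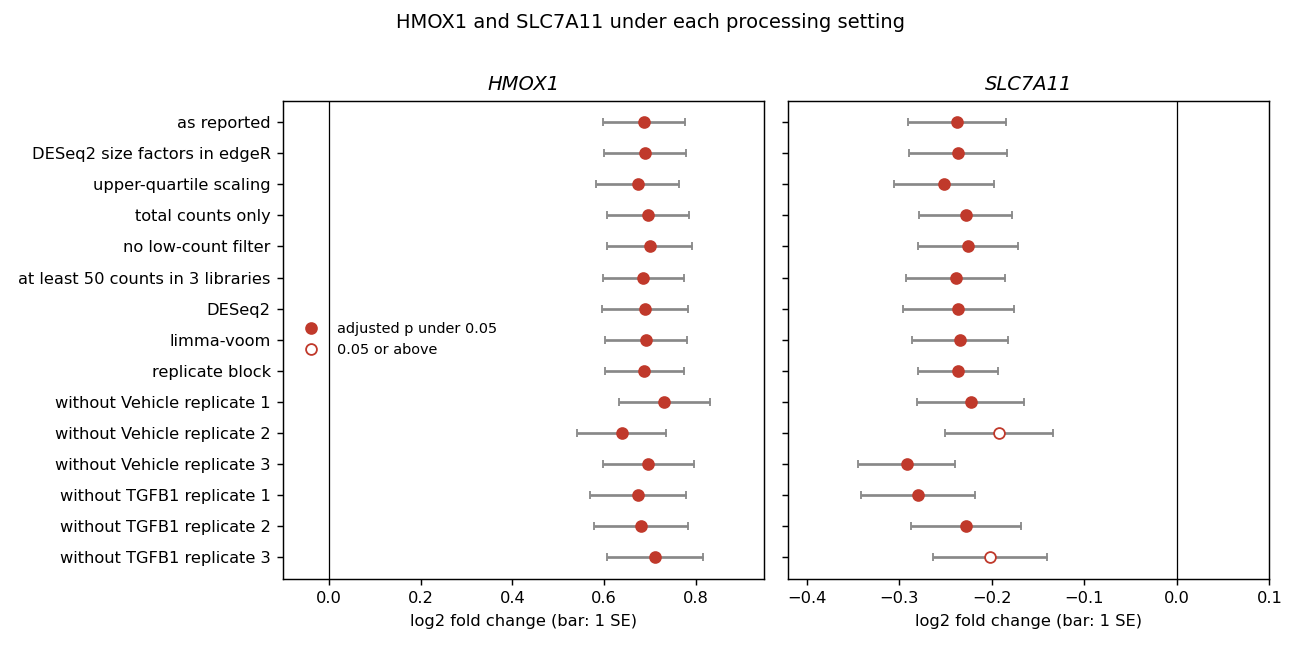
log2 fold change (x axis; bar: 1 SE) of HMOX1 and SLC7A11 as reported and under each of the 14 alternatives (y axis); filled points have an adjusted p under 0.05. HMOX1 stays between 0.64 and 0.73 with all points filled, and SLC7A11 between -0.29 and -0.19 with 2 open points, those without Vehicle replicate 2 and without TGFB1 replicate 3.

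The wider pathway was read from 9 lists with 140 symbols, of which 139 matched a row (SOD2 did not) and 127 were tested. Of these, 3 rose and 3 fell, against 3.31% of all tested genes, and their median log2 fold change was -0.0048, beside -0.0067 for all tested genes. Without Vehicle replicate 3 the count of list genes that passed was 10, and the count over all genes went from 553 to 923.

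None of the 15 tested regulators and partners of NRF2 passed by edgeR, DESeq2 or limma-voom, and 2 had an unadjusted p under 0.05 by edgeR, against 12.3% of all tested genes. They include BACH1, the small MAF genes MAFF, MAFG and MAFK, and CUL3. Those with the most reads were SQSTM1, whose product p62 can sequester KEAP1, at 343.6 ± 3.90 CPM (Vehicle) and 334.7 ± 12.6 CPM (TGFB1), and NFE2L1, the NRF1 gene, at 149.0 ± 4.64 and 148.3 ± 4.41 CPM (SD, n = 3 each). BACH1 differed by -0.09 on the log2 scale with SE 0.06 (adjusted p = 0.569, edgeR; named after its value was seen).

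Of 26 tested glutathione genes 1 rose and 0 fell, against 3.31% of all tested genes. By edgeR 4 had an unadjusted p under 0.05, against 12.3% of all tested genes. The gene that rose was GPX4, which encodes the peroxidase that removes lipid hydroperoxides, at 84.7 ± 3.67 CPM (Vehicle) and 97.1 ± 4.67 CPM (TGFB1; SD, n = 3 each). The groups did not overlap, and the log2 fold change was 0.20 with SE 0.06 (adjusted p = 0.0494, edgeR). That call was lost under 7 of 14 alternatives: without Vehicle replicate 2 or 3 or TGFB1 replicate 1 or 3 (adjusted p = 0.153, 0.11, 0.333 and 0.214), and with upper-quartile scaling, limma-voom or no low-count filter (0.0804, 0.0562 and 0.0528). Over all 14 the adjusted p ran from 0.0282 to 0.333.

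Of 17 thioredoxin, peroxiredoxin and glutaredoxin genes 0 rose and 1 fell, against 3.31% of all tested genes. By edgeR 3 had an unadjusted p under 0.05, against 12.3% of all tested genes. TXNIP, whose product binds and inhibits thioredoxin and restrains glucose uptake, held 150.8, 133.5 and 152.6 CPM in Vehicle and 80.6, 85.4 and 77.9 CPM with TGFB1. Every TGFB1 library was below every Vehicle library, by more than the range within either group. The log2 fold change was -0.84 with SE 0.06 (adjusted p = 7.14e-13, edgeR), and TXNIP passed under all 14 alternatives, with adjusted p of 3.25e-09 or less. TXN itself had a log2 fold change of -0.01 with SE 0.05 (adjusted p = 0.971, edgeR; named after its value was seen).

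No gene passed by edgeR, DESeq2 or limma-voom among 9 NADPH supply genes, 17 detoxification and other reported NRF2 target genes or 7 genes of superoxide, catalase and NADPH oxidase, with 2, 2 and 0 at an unadjusted p under 0.05 by edgeR, against 12.3% of all tested genes. The NADPH genes with the most reads, TKT of the pentose phosphate pathway and MTHFD2 of mitochondrial folate metabolism, had log2 fold changes of -0.03 and -0.05. Among detoxification genes, the aldose reductase gene AKR1B1 and the UDP-glucose dehydrogenase gene UGDH had -0.12 and -0.08. The detoxification list ran from -0.69 for AKR1C1 (adjusted p = 0.0926, edgeR) to 0.40 for AKR1B10 (adjusted p = 0.892, edgeR). The NADPH list ran from -0.14 for IDH1 (adjusted p = 0.293, edgeR) to 0.24 for PGD (adjusted p = 0.0820, edgeR). AKR1C1, AKR1B10, IDH1 and PGD were named after their values were seen. The superoxide dismutase gene SOD1 and the catalase gene CAT had -0.01 and -0.10.

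Of 12 tested genes of amino acid transport and cysteine synthesis 0 rose and 1 fell, against 3.31% of all tested genes. By edgeR 3 had an unadjusted p under 0.05, against 12.3% of all tested genes. SLC38A2, which encodes the neutral amino acid transporter SNAT2, held 1190, 1206 and 1118 CPM in Vehicle and 970.9, 990.8 and 992.2 CPM with TGFB1. The groups did not overlap. Its log2 fold change of -0.25 with SE 0.04 (adjusted p = 0.000256, edgeR) passed under all 14 alternatives, with adjusted p of 1.68e-06 to 0.0109. SLC7A5, the LAT1 gene whose protein also pairs with SLC3A2, did not pass, at 0.30 with SE 0.08 (adjusted p = 0.0996, edgeR; named after its value was seen).

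ATF4, a transcription factor that is known to act on SLC7A11 and on other genes of the amino acid response, was tested with 15 of those genes. Of the 16, 2 rose and 1 fell, against 3.31% of all tested genes. An unadjusted p under 0.05 was found for 7 by edgeR, against 12.3% of all tested genes. They went both ways: ATF3, CEBPB, CEBPG and PSAT1 were higher with TGFB1, and DDIT3, DDIT4 and VLDLR were lower. CEBPG, PSAT1, DDIT3 and VLDLR were named after their values were seen. DESeq2 found 6 and limma-voom 7, and the share over all tested genes was not taken for these tools. ATF3, a stress-response factor of the same family, rose from 19.0 ± 1.97 to 48.1 ± 3.72 CPM (SD, n = 3 each). Its log2 fold change was 1.34 with SE 0.09 (adjusted p = 7.77e-14, edgeR). CEBPB rose by 0.21 on the log2 scale with SE 0.06 (adjusted p = 0.0365, edgeR), a call lost under 6 of 14 alternatives: without Vehicle replicate 1 or 2 or TGFB1 replicate 1 or 3 (adjusted p = 0.133, 0.123, 0.297 and 0.189), and with upper-quartile scaling or limma-voom (0.0576 and 0.0524); over all 14 it ran from 0.0148 to 0.297. DDIT4, which encodes the mTORC1 inhibitor REDD1, fell from 109.8 ± 3.82 to 78.2 ± 0.271 CPM, and its log2 fold change was -0.49 with SE 0.05 (adjusted p = 6.86e-08, edgeR). ATF3 and DDIT4 passed under all 14 alternatives. CEBPB and DDIT4 share 11.8% and 41.2% of their exonic bases with antisense genes, of which that of DDIT4 had 0 counts. ATF4 itself had a log2 fold change of -0.0048 with SE 0.05 (adjusted p = 0.987, edgeR).

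**Figure D4:**
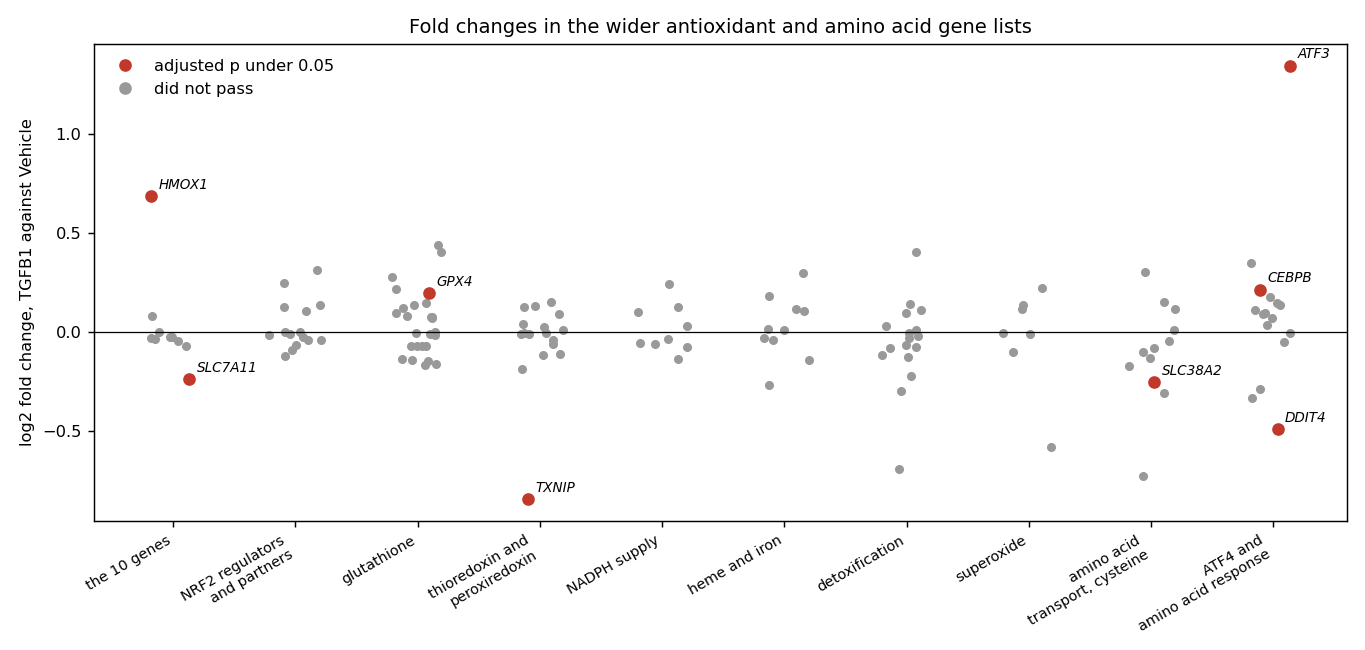
log2 fold changes, TGFB1 against Vehicle (y axis), of the tested members of each list (x axis; the horizontal scatter within a list has no meaning); red points passed an adjusted p of 0.05 and are named. HMOX1 at 0.69 and SLC7A11 at -0.24 stand in the first column, and TXNIP at -0.84, ATF3 at 1.34 and DDIT4 at -0.49 are the red points farthest from 0 in the others.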

How the data were processed

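Per the labels, RNA of 6 A375 libraries was depleted of ribosomal RNA, although the molecule is listed as polyA RNA. The deposited table holds raw counts per Ensembl gene ID, and lists unassigned reads nowhere. Cutadapt, TopHat2 2.1 and HTSeq were used with GRCh38, per the submitters' processing notes. The annotation release, counting mode and strandedness were not given in the sources used here. Symbols were matched by ID for 41445 of 58051 rows.

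Genes were kept by filterByExpr (minimum count 10, minimum total 15), which left 16690, scaled by TMM and tested with edgeR 4.0.16 (quasi-likelihood F-test, robust, R 4.3.3), group as the sole term, Benjamini-Hochberg over all genes, threshold 0.05. The SE is the absolute log2 fold change divided by the square root of F, and the 95% interval uses the t quantile at the test's degrees of freedom. CPM uses TMM-scaled library sizes. The test was tested on simulated data.

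The alternatives were DESeq2 size factors, upper-quartile or total-count scaling, no low-count filter, at least 50 counts in 3 libraries, DESeq2 1.42.0, limma-voom (limma 3.58.1), a replicate block and leaving out each library. The 10 genes and the lists were chosen with earlier results of these data known. From each pathway list the text names the genes that passed, or the 2 with the most reads (by mean CPM) where none did. All tested melanoma markers are named, and for each called member the 3 genes most alike in pattern. Any other gene is marked as named after seeing its value, or is context.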

Additional observations from a re-analysis of the deposited data

How the results depend on the processing

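Leaving out 1 library at a time gave 1 to 2 called genes among the 10, a log2 fold change of -0.29 to -0.19 for SLC7A11, 365 to 923 called genes over the whole table and 4 to 10 over the wider lists. HMOX1 kept its call under all 14 alternatives. Among the genes that never passed, the sign of a value near 0 turned: KEAP1 was at -0.0124 with upper-quartile scaling and at -0.0272 to 0.0509 with a library left out, and NQO1 ran from -0.0642 to 0.009, GCLC from -0.0794 to 0.0483 and GCLM from -0.0658 to 0.019 with a library left out. The cause was not tested.

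The replicate numbers are shared between the groups, but same-numbered libraries did not deviate together (r = -0.03, 0.04 and 0.01 across genes), and 2 of 6 libraries correlated best with their own number. With a replicate block the calls went from 553 to 601 over all genes and from 6 to 10 over the wider lists, and stayed at 2 among the 10 genes. SRXN1, with 122 to 188 reads per library, had the least depth of the 10 genes and the widest interval.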
